A study of Oryctolagus cuniculus with 34 samples.

Results

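The comparison described here is that of injured rabbit supraspinatus muscle repaired with a matrix gel against the same muscle with the injury only, in the short term. Its 9 libraries, 5 of the gel group and 4 of the injury group, were chosen by their titles from 34 libraries in the series. The supraspinatus is a rotator cuff muscle of the shoulder, and the series title describes the gel as extracellular matrix derived from tissue. The matrix gel treated group had the injury repaired with the gel added, and the injury group had neither repair nor gel, so the gel and the repair cannot be told apart in this comparison. A further 5 short-term libraries, of repair only, entered the model to estimate the spread. The sources used here do not state the strain, the age, the length of the short term or whether each library is a separate animal, and p-values measure the spread between libraries, which may be technical.

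Torn muscle is cleared by infiltrating macrophages and rebuilt by satellite cells, the muscle stem cells, which divide, fuse and switch on embryonic forms of the contractile proteins before the adult forms return. Unloaded or denervated fibres break down protein through ubiquitin ligases under FOXO transcription factors, and spread acetylcholine receptors with the fetal gamma subunit over their surface. Rotator cuff muscle is known for filling with fat and scar after a tear, both of which arise in part from fibro-adipogenic progenitors.

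Each library held between 26904529 and 32313295 counts, with 13927 to 15204 genes detected among the 14 short-term libraries. The tissue label was met: in CPM, counts scaled to the size of each library, 12 skeletal muscle genes, among them ACTN2, DES and CKM, summed to between 103000 and 223000 in gel libraries and between 80600 and 297000 in injury libraries. The injury libraries were not alike. Over all genes tested, injury 3 lay 0.831 log2 units (root mean square of log2 CPM) from the mean of the gel libraries and 1.16 from the mean of the other 3 injury libraries. Injury 1, 2 and 4 lay 0.572 to 0.703 from the mean of the other injury libraries and 0.892 to 1.14 from the gel mean. Injury 3 had the lowest sum of muscle genes of the 9 libraries, and its 20 most abundant genes took 18.6% of its counts, against 24.1% to 36.5% in gel libraries and 36.8% to 42.5% in the other injury libraries. Among the repair libraries, repair 4 lay closer to the injury libraries (0.657) than to the gel libraries (1.15). No label accounts for either position.

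**Figure D1:**
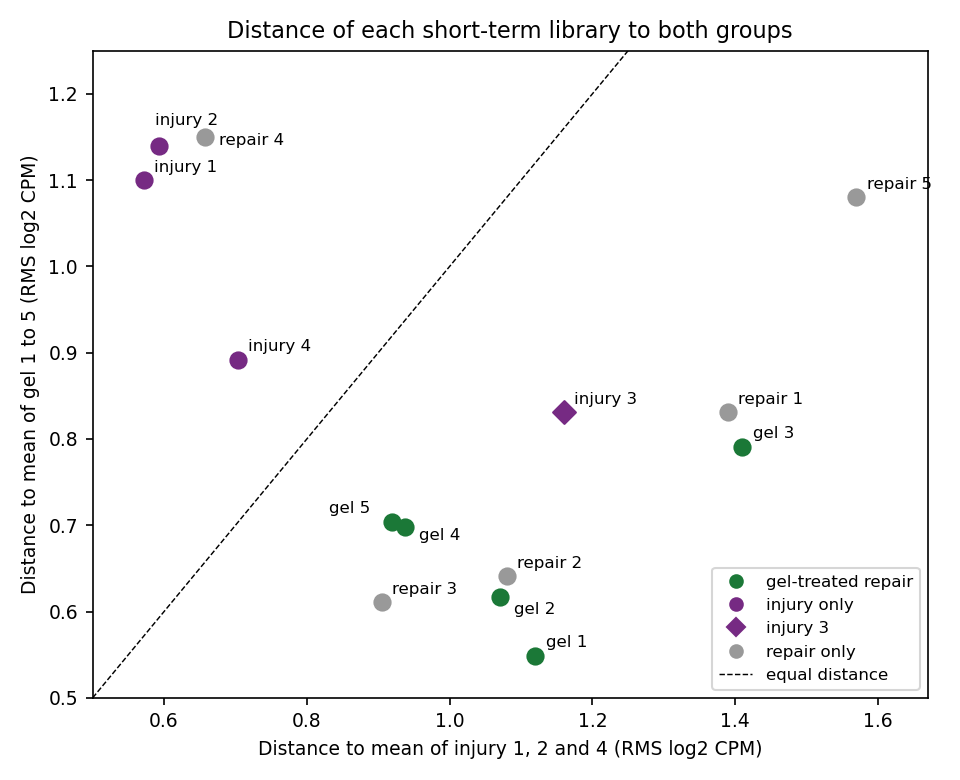
Root mean square distance in log2 CPM of each short-term library to the mean of injury 1, 2 and 4 (x axis) and to the mean of the gel libraries (y axis), leaving the library itself out of its group's mean; green points are gel-treated repair, purple points injury only, with injury 3 as a diamond, and grey points repair only. Injury 3, at 1.16 and 0.831, lies below the line of equal distance with the gel libraries, and the other injury libraries lie above it.

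In the fit of the 14 libraries, 13526 genes were tested with edgeR's quasi-likelihood test and 0 passed a Benjamini-Hochberg adjusted p of 0.05, the smallest adjusted p being 0.0522. At an unadjusted p under 0.05, 1330 genes (9.83%) were higher and 1163 (8.6%) were lower in gel-treated muscle. On the same counts DESeq2 called 492 higher (3.65%) and 296 lower (2.2%), and limma voom with sample quality weights 1869 higher and 1798 lower. The voom fit gave injury 3 a weight of only 0.261, against 1.42 to 2.39 for the other injury libraries. Repair 4 (0.287) and repair 5 (0.333) also had low weights. The values of the 5 gel and 4 injury libraries did not overlap for 589 genes that were higher (4.35%) and 395 that were lower (2.92%). Without injury 3, 13670 genes were tested and 382 passed, 105 higher (0.768%) and 277 lower (2.03%) in gel-treated muscle. In that fit 1985 genes (14.5%) were higher and 2085 (15.3%) lower at an unadjusted p under 0.05, and DESeq2 called 1425 higher (10.5%) and 1110 lower (8.15%). The counts of list members below are to be read against these shares. Leaving out gel replicate 5, repair 1, repair 2 or repair 4 in place of injury 3 gave between 1 and 7 genes that were higher and 0 or 1 that was lower, and leaving out any other single library gave 0. The 382 calls were themselves fragile: leaving out any gel library, or injury 1 or injury 2, besides injury 3 gave 0 calls. A gene said below to have passed did so in the fit without injury 3, unless another fit is named.

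Injury 3 stood among the gel libraries for a large share of these genes. Of the 277 genes lower in gel-treated muscle, injury 3 was within the range of the gel libraries for 147 and beyond that range for 55, and within the range of the other injury libraries for 9. Of the 105 that were higher, it was within the gel range for 35, between both ranges for 49 and within the range of the other injury libraries for 12. In all 9 libraries the groups stayed apart for 64 of the 105 and 75 of the 277. The sign in the 14-library fit was the same for all 382. The median log2 difference (gel minus injury) over all genes was 0.02 with 14 libraries and 0.04 without injury 3 under TMM scaling, which sets the level that most genes share, and 0.17 and 0.54 when libraries were scaled by total counts. Of the genes at an unadjusted p under 0.05, 53.3% were higher in gel-treated muscle under TMM scaling and 70.4% under total counts; without injury 3 these shares were 48.8% and 90.6%. Directions below are therefore relative to the bulk of genes.

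Genes without overlap between the groups in all 9 libraries were of varied function. Their choice fixes that injury 3 lies outside the gel range in them. ANP32E, a chaperone that removes the histone variant H2A.Z from chromatin, had 23.9, 24.4, 23.8, 26.9 and 22.7 CPM in the gel libraries and 45.9, 46.9, 44.5 and 43.7 CPM in the injury libraries. The groups were far apart and each was tight, and the log2 difference was -0.90 ± 0.15 (SE), or -0.97 ± 0.17 without injury 3 (edgeR adjusted p = 0.0367). BMI1, a subunit of Polycomb repressive complex 1, had 19.3, 16.4, 17.3, 28.0 and 21.1 CPM with the gel and 40.9, 52.2, 39.3 and 35.5 CPM with injury only. No library of BMI1 crossed into the other group, and it passed, with a log2 difference of -1.14, or -1.04 with injury 3.

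Other genes that fell without overlap in any of the 9 libraries were EPN2, an endocytic adaptor (log2 difference -0.98 without injury 3 and -0.84 with it), PDS5B, a cohesin regulator (-0.79 and -0.70), ZNF274, a zinc finger repressor (-1.12 and -1.10), CEP120, a centrosomal protein (-0.69 and -0.62), and NAT8L, which makes N-acetylaspartate (-1.81 and -1.87). NAT8L was at 0.431 to 1.92 CPM in gel libraries and 3.52 to 5.74 CPM in injury libraries. Among the 26 genes of a polycomb and chromatin list, 14 had a log2 difference above 0 and 12 below 0, with a median of 0.02, and 11 were above 0 and 15 below 0 without injury 3, with a median of -0.15. Of the 26, 4 were lower without overlap in 9 libraries (2.92% of all genes) and 3 passed as lower without injury 3 (2.03% of all genes). CBX7, another Polycomb subunit, had 32.7, 25.5, 12.9, 34.2 and 38.1 CPM with the gel and 93.6, 79.1, 41.3 and 79.0 CPM with injury only. Injury 3 was the lowest injury library in CBX7 but above every gel library.

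Higher with the gel in every library was DLK1, an imprinted transmembrane protein of developing muscle and of preadipocytes, at 2.55, 3.52, 4.64, 2.00 and 1.04 CPM in the gel libraries and 0.0915, 0.181, 0.111 and 0.0753 CPM in the injury libraries. All 4 injury libraries, injury 3 included, were near the limit of detection, and the log2 difference was 4.55 ± 0.69 with 14 libraries and 4.47 ± 0.81 without injury 3. MUSTN1, a small nuclear protein of regenerating muscle and bone, was far more abundant. It had 2013, 3434, 2134, 961 and 1409 CPM with the gel and 282, 160, 301 and 339 CPM with injury only. Its lowest gel library was well above its highest injury library, and the log2 difference was 2.88 ± 0.53 with 14 libraries and 2.87 ± 0.61 without injury 3.

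ATXN7L2, a relative of a subunit of the SAGA chromatin complex, had 35.7, 62.0, 67.3, 40.0 and 28.7 CPM with the gel and 9.65, 7.54, 13.3 and 8.36 CPM with injury only. TRO, the adhesion protein trophinin, had 45.5, 68.9, 57.3, 49.3 and 61.3 CPM with the gel and 16.8, 15.9, 23.2 and 19 CPM with injury only. Injury 3 was the highest injury library for both, yet below every gel library. PPIF, the mitochondrial cyclophilin of the permeability transition pore, rose by a log2 difference of 1.23 without injury 3 (1.32 with it), PMM1, a phosphomannomutase, by 1.57 (1.53), SCFD2 by 1.22 (1.20) and CCDC28B by 0.91 (1.05), all without overlap in the 9 libraries. When the model was fitted to the 9 libraries alone, 6 genes passed as higher, among them DLK1, ATXN7L2, TRO, S100A13 and RNF207, and 1 as lower, ANP32E. S100A13 and RNF207 were named after their values were seen; S100A13 had 23.6 to 40.3 CPM with the gel and 3.52 to 9.71 CPM with injury only, and RNF207 had 13.6 to 19.4 CPM with the gel and 2.50 to 5.08 CPM with injury only.

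**Figure D2:**
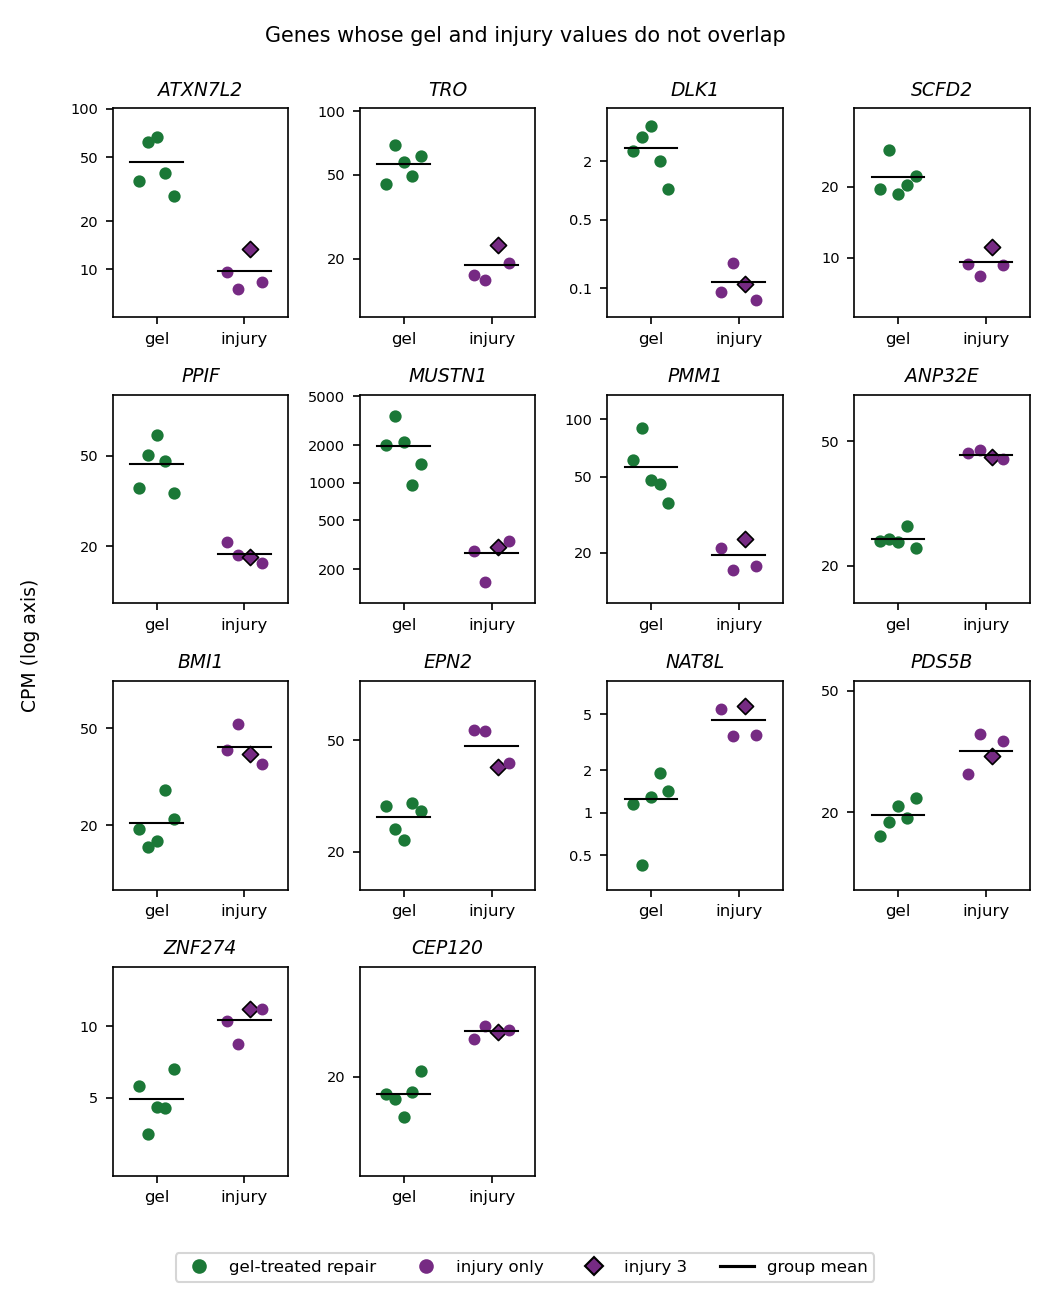
CPM on a log axis in the 5 gel libraries (green, left) and the 4 injury libraries (purple, right, injury 3 as a diamond) for 7 of the genes that were higher with the gel and 7 that were lower; bars are group means. The genes were chosen for having no overlap between the groups; the widest gap is in DLK1, where injury 3 is at 0.111 CPM.

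Interferon response genes, which cells switch on when they sense nucleic acids or interferon, had higher group estimates in gel-treated muscle throughout the list but unevenly between libraries. Relative to the mean of the 9 libraries, the mean log2 CPM of the list was highest in gel 3 (1.86) and gel 2 (1.41). Gel 4 (-0.79) lay below injury 2 (-0.76), injury 3 (-0.38) and injury 4 (-0.48). Of 38 genes tested, 38 had a log2 difference above 0, with a median of 1.38 against 0.02 for all genes. Of the 38, 25 had an unadjusted p under 0.05 (9.83% of all genes). Without injury 3 the median was 1.35 and 37 were above 0. In that fit 0 passed in edgeR, 24 had an unadjusted p under 0.05 (14.5% of all genes) and DESeq2 called 16 (10.5%). ISG15, a ubiquitin-like modifier, had 9.11, 72.2, 232, 4.32 and 4.95 CPM with the gel and 2.20, 3.30, 3.83 and 3.31 CPM with injury only. Gel 3 and gel 2 were far above the other gel libraries, gel 4 and gel 5 were little above the injury libraries, and injury 3 was with its group. MX1, an antiviral GTPase, had 76.2, 210, 474, 30.9 and 50.8 CPM with the gel and 19.1, 27.9, 53.3 and 42.6 CPM with injury only, so that gel 4 and gel 5 lay inside the range of the injury libraries.

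Some members did not overlap between groups. DHX58, which assists RIG-I-like RNA sensors, had 20.4, 34.6, 43.7, 14.1 and 14.4 CPM with the gel and 8.19, 8.22, 10.4 and 11.4 CPM with injury only. IRF9, the DNA-binding part of the factor that interferon activates, had 32.3 to 81.0 CPM with the gel and 19.6 to 27.6 CPM with injury only. UBA7, the enzyme that activates ISG15, had 7.13 to 32.5 CPM with the gel and 3.70 to 6.44 CPM with injury only. These 3 genes and ISG15 were the 4 of 38 members whose groups did not overlap in 9 libraries (4.35% of all genes were higher without overlap). None passed. The edgeR adjusted p-values were 0.0632 for DHX58, 0.0827 for IRF9, 0.0667 for UBA7 and 0.0768 for ISG15 without injury 3. With 14 libraries they were 0.145, 0.168, 0.157 and 0.157.

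Antigen presentation genes were higher too. All 15 tested had a log2 difference above 0, with a median of 1.10, and 14 of 15 did without injury 3, with a median of 1.12. There 0 passed in edgeR, 12 had an unadjusted p under 0.05 (14.5% of all genes) and DESeq2 called 10 (10.5%). PSMB10, a catalytic subunit of the immunoproteasome that cuts peptides for MHC class I, had 14.9, 18.3, 36.3, 10.2 and 12.4 CPM with the gel and 5.72, 5.87, 8.60 and 5.99 CPM with injury only. PSMB8, another such subunit, had 5.91 to 18.4 CPM with the gel and 1.40 to 5.49 CPM with injury only. For both the groups did not overlap. The edgeR adjusted p was 0.0541 for PSMB10 and 0.0572 for PSMB8 without injury 3, and 0.145 and 0.168 with 14 libraries. On the MHC class II side, CD74, the invariant chain, had 366, 218, 557, 169 and 138 CPM with the gel and 16.7, 13.1, 169 and 43.5 CPM with injury only. Injury 3 lay inside the gel range, and the log2 difference of CD74 was 2.26 ± 0.88 with it and 3.51 ± 0.88 without it. The edgeR adjusted p of CD74 was 0.214 with injury 3 and 0.0501 without it.

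One chemokine gene passed, CXCL10, which interferon-gamma induces. CXCL10, which draws T cells through CXCR3, had 13.5, 56.3, 52.4, 3.10 and 29.0 CPM with the gel and 0.732, 0.813, 1.11 and 2.41 CPM with injury only. Even gel 4, the lowest, was above every injury library, and CXCL10 passed with a log2 difference of 4.47 ± 1.08 without injury 3 (edgeR adjusted p = 0.0467) and 4.59 ± 0.93 with it. Its relative CXCL11 had 1.96, 1.80, 8.41, 0.591 and 8.23 CPM with the gel and 0, 0.181, 0.166 and 0.0753 CPM with injury only. The groups did not overlap for CXCL11, which did not pass (edgeR adjusted p = 0.0809, and 0.161 with 14 libraries). In the whole list of chemokines and receptors 20 of 26 were above 0, with a median log2 difference of 1.44, 8 were higher without overlap (4.35% of all genes), and 1 passed without injury 3, where the median was 1.54. The exception without overlap was CX3CR1, the fractalkine receptor, with 0.934 to 1.88 CPM in gel libraries and 2.16 to 3.43 CPM in injury libraries.

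Macrophage and lymphocyte genes were higher in most gel libraries, and injury 3 was higher in them than the other injury libraries. For macrophage identity genes the median log2 difference was 2.42, 15 of 15 being above 0, and 2.86 without injury 3. In the latter fit 0 passed in edgeR, 14 had an unadjusted p under 0.05 (14.5% of all genes) and DESeq2 called 13 (10.5%). AIF1, a calcium-binding protein of macrophages, had 22.9, 10.3, 33.0, 5.65 and 5.59 CPM with the gel and 1.10, 1.08, 6.33 and 1.62 CPM with injury only. SPI1, the transcription factor PU.1 of myeloid cells, had 8.52, 2.23, 8.04, 2.22 and 1.28 CPM with the gel and 0.320, 0.0903, 1.91 and 0.678 CPM with injury only. In both, injury 3 overlapped the lowest gel libraries and the other injury libraries did not. The other 19 genes of the macrophage and monocyte list, of alternative activation and lipid handling, had a smaller shift. Their median was 0.69, with 15 above 0 and 4 below 0, or 1.18 without injury 3. Of these, 2 had an unadjusted p under 0.05 with 14 libraries (9.83% of all genes), where DESeq2 called 0. Without injury 3, DESeq2 called 6 (10.5% of all genes). In bulk tissue, more cells of a type and more RNA per cell cannot be told apart. Summed over all 36 macrophage and monocyte genes in the files, which include abundant genes of lipid handling that fat and muscle also express, the level was 1050 to 2570 CPM in gel libraries and 1130 to 2510 CPM in injury libraries, so the sums overlapped.

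For T and natural killer cell genes the median log2 difference was 2.11, or 2.65 without injury 3. With 14 libraries 12 of 13 were above 0, and 5 were higher without overlap (4.35% of all genes). CD3E, a chain of the T cell receptor complex, had 0.534, 1.19, 4.02, 0.628 and 0.639 CPM with the gel and 0, 0.0452, 0.416 and 0.527 CPM with injury only. CD27, a costimulatory receptor and the one lymphocyte gene that passed (edgeR adjusted p = 0.0450), had 0.534, 0.575, 2.04, 0.370 and 0.400 CPM with the gel and 0, 0, 0.333 and 0.0753 CPM with injury only. The groups did not overlap for either gene, but the levels were low and gel 3 was the highest. All 28 T and B lymphocyte genes in the files summed to 127 to 189 CPM in gel libraries and 162 to 188 CPM in injury libraries, a sum led by XBP1, which many cell types express. Among other immune genes that passed were TNFRSF1B, the TNF receptor of leukocytes, with 21.7 to 58.3 CPM in gel libraries and 4.52 to 20.7 CPM in injury libraries, and ITGAX, the CD11c integrin, with 0.804 to 5.31 CPM in gel libraries and 0.151 to 1.83 CPM in injury libraries. Their log2 differences were 2.24 and 3.85 without injury 3 and 1.67 and 2.22 with it, and injury 3 held the highest injury value of each.

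Neutrophil and mast cell genes summed to 4.68 to 15.5 CPM in gel libraries and 2.82 to 6.60 CPM in injury libraries over 13 genes, with MMP8 at 0 in all 9. Erythroid genes, a sign of blood in the sample, summed to 34.6 to 124 CPM in gel libraries and 96.5 to 206 CPM in injury libraries over 7 genes. The part of these cells in the immune differences was not tested.

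Genes of cell division were higher in gel-treated muscle. Of 40 mitosis genes tested, 38 had a log2 difference above 0, with a median of 2.09. Of the 40, 24 were higher at an unadjusted p under 0.05 (9.83% of all genes) and 16 were higher without overlap (4.35%). Without injury 3 the median was 2.38 and 3 passed as higher (0.768% of all genes). UBE2C, the ubiquitin-conjugating enzyme of the anaphase-promoting complex, had 13.3, 7.25, 12.7, 4.77 and 8.99 CPM with the gel and 1.24, 2.53, 0.610 and 1.51 CPM with injury only. Here injury 3 was the lowest injury library, and the log2 difference was 2.69 ± 0.55 with it and 2.35 ± 0.56 without it (edgeR adjusted p = 0.0463). KIF23, a kinesin needed for cytokinesis, had 4.13, 1.65, 2.87, 3.88 and 1.44 CPM with the gel and 0, 0.226, 1.39 and 0.0753 CPM with injury only. Injury 3 was just under the lowest gel library in KIF23, and MKI67, the proliferation marker Ki-67, had the same order, with 2.24 to 10.6 CPM in gel libraries, 1.61 CPM in injury 3 and 0.151 to 0.366 CPM in the other injury libraries.

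DNA replication genes had a smaller shift, with 24 of 30 above 0 and a median log2 difference of 0.77 (0.91 without injury 3). Without injury 3, 0 passed in edgeR and DESeq2 called 9 higher (10.5% of all genes). At an unadjusted p under 0.05, 11 were then higher (14.5% of all genes) and 3 lower (15.3%). RRM2, the subunit of ribonucleotide reductase made in S phase, had 1.20 to 4.39 CPM with the gel and 0.301 to 0.888 CPM with injury only. TK1, thymidine kinase, had 5.23 to 36.6 CPM with the gel and 1.31 to 4.30 CPM with injury only, and its highest library was gel 4, whereas gel 1 was the highest in RRM2, UBE2C, KIF23 and MKI67. Neither overlapped between groups, and the edgeR adjusted p-values without injury 3 were 0.0545 for RRM2 and 0.0575 for TK1. With 14 libraries they were 0.156 and 0.168. RBL2, the p130 protein that holds quiescent cells out of the cycle, had 13.4 to 24.9 CPM with the gel and 28.1 to 38.0 CPM with injury only, without overlap. It did not pass (edgeR adjusted p = 0.0784, and 0.163 with 14 libraries).

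Injury 3 was unlike the rest of its group in several genes of embryonic muscle. Of 17 genes in a list of developing fibres, 13 were above 0 with a median log2 difference of 2.08, or 14 with a median of 2.65 without injury 3. In the latter fit 4 passed as higher (0.768% of all genes): MYL4 and ACTC1, which encode sarcomere proteins, and MUSTN1 and CHRNG, which do not. MYL4, the atrial and embryonic light chain of myosin, had 77.9, 226, 1026, 109 and 72.1 CPM with the gel and 0.275, 0.813, 217 and 1.28 CPM with injury only. ACTC1, cardiac alpha-actin, which developing muscle fibres also use, had 2570, 6432, 12144, 1298 and 700 CPM with the gel and 18.3, 21.5, 1462 and 89.1 CPM with injury only. CHRNG, the fetal gamma subunit of the acetylcholine receptor, had 106, 284, 841, 78.9 and 100 CPM with the gel and 1.88, 3.21, 97.8 and 5.87 CPM with injury only.

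For all 3 genes injury 3 lay inside the gel range while the other injury libraries were far lower, and gel 3 was the highest gel library. The log2 difference of MYL4 was 8.49 ± 1.90 without injury 3 and 2.46 ± 1.77 with it, and 1.14 with injury 3 kept and gel 3 left out. That of ACTC1 was 6.70 ± 1.59 without injury 3 and 3.54 ± 1.51 with it, and that of CHRNG was 6.20 ± 1.41 without it and 3.37 ± 1.38 with it. None of the 3 passed with injury 3 (edgeR adjusted p = 0.476 for MYL4, 0.243 for ACTC1 and 0.227 for CHRNG). MYH3, embryonic myosin heavy chain, had 181, 911, 3303, 122 and 116 CPM with the gel and 24.9, 28.9, 201 and 125 CPM with injury only, and there injury 4 also reached the gel range.

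Gel 3 was also the highest library in other genes with large differences. NRK, a kinase of embryonic muscle and placenta in the mouse, had 13.6 to 91.7 CPM with the gel and 1.51 to 10.2 CPM with injury only. CAPN6, a calpain without protease activity that is expressed in embryonic muscle of the mouse, had 19.6 to 153 CPM with the gel and 3.66 to 17.2 CPM with injury only. PCYOX1L, a relative of prenylcysteine oxidase, had 9.39 to 96.1 CPM with the gel and 1.60 to 6.27 CPM with injury only. In all 3 the highest injury library was injury 3 and the groups did not overlap; the log2 differences were 4.03 for NRK, 3.58 for CAPN6 and 4.12 for PCYOX1L without injury 3, where all passed, and 3.05, 2.95 and 3.61 with it.

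Among the denervation and neuromuscular junction genes, 16 of 22 were above 0, with a median log2 difference of 0.48 (0.58 without injury 3), and 1 passed, CHRNG, which the list of developing fibres also holds. CHRNB1, the beta subunit of the adult and fetal acetylcholine receptor, had 109, 127, 136, 62.6 and 93.1 CPM with the gel and 25.9, 34.5, 43.5 and 55.2 CPM with injury only. The groups did not overlap for CHRNB1, and injury 3 was within its group (log2 difference 1.41 ± 0.37, edgeR adjusted p = 0.145 with 14 libraries and 0.0649 without injury 3). NCAM1, an adhesion protein of satellite cells and denervated fibres, had 58.7 to 321 CPM with the gel, 88.2 CPM in injury 3 and 10.3 to 25.0 CPM in the other injury libraries. The regulators of satellite cells as a group were near the background, with a median log2 difference of 0.17 over 20 genes (0.28 without injury 3), and MYOD1, the myogenic transcription factor, had 20.3 to 103 CPM with the gel and 13.7 to 20.5 CPM with injury only.

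**Figure D3:**
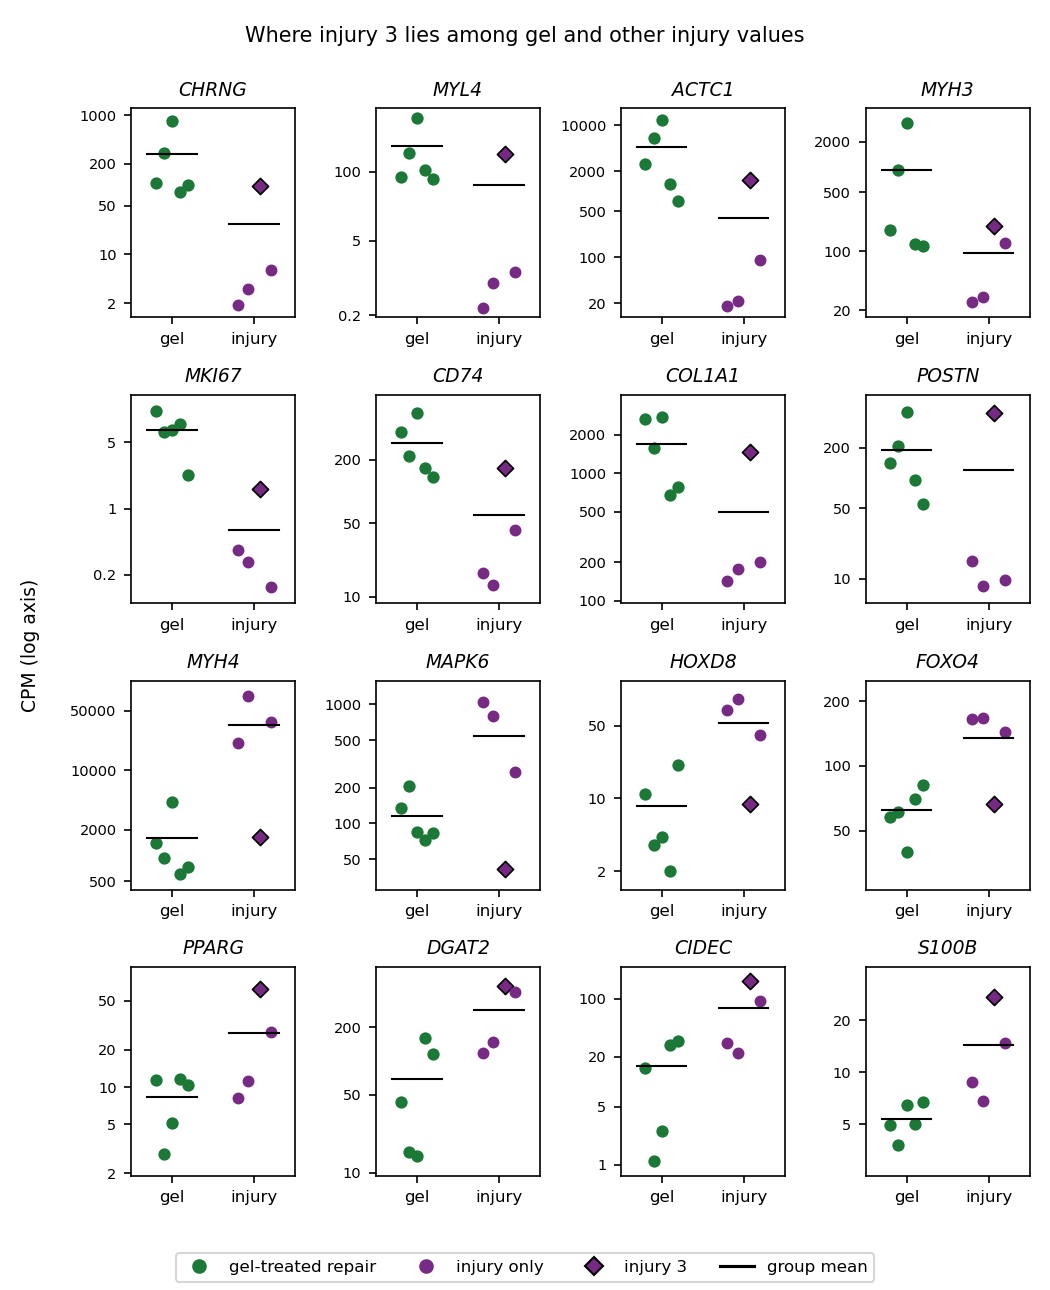
CPM on a log axis in the 5 gel libraries (green, left) and the 4 injury libraries (purple, right, injury 3 as a diamond), with group means as bars, for genes of contraction, division, matrix, breakdown, fat and nerve. Injury 3 is with the gel libraries in CHRNG, ACTC1, MYL4, COL1A1, MYH4 and FOXO4, and above every gel library in PPARG, DGAT2, CIDEC and S100B.

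**Figure D4:**
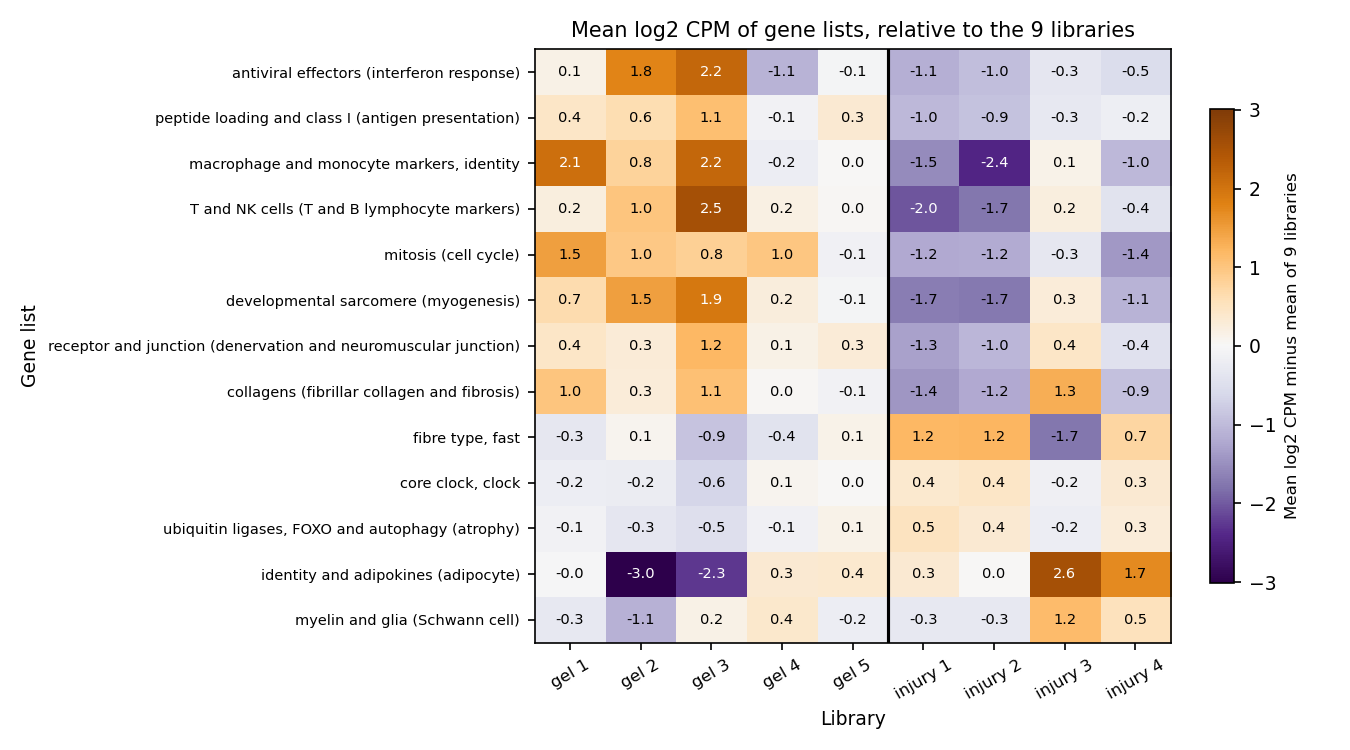
Mean log2 CPM of 13 gene lists in each of the 9 libraries, minus the mean over the 9, with gel libraries left of the line and injury libraries right of it; orange is above and purple below the mean. Gel 2 and gel 3 carry most of the interferon difference, and injury 3 departs from the other injury libraries in the collagen, fast fibre and adipocyte lists.

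Genes of protein breakdown were lower in gel-treated muscle. Of 20 atrophy genes, 18 had a log2 difference below 0, with a median of -0.38, or -0.58 without injury 3, where 3 passed as lower (2.03% of all genes). FOXO4, one of the FOXO factors that switch on these genes, had 57.8, 60.9, 39.8, 70.1 and 81.4 CPM with the gel and 165, 167, 66.7 and 143 CPM with injury only. UBB, a polyubiquitin gene, had 91.6, 68.1, 77.9, 84.1 and 130 CPM with the gel and 243, 239, 104 and 165 CPM with injury only. FBXO31, an F-box protein of an SCF ubiquitin ligase, had 55.4 to 81.6 CPM with the gel, 61.6 CPM in injury 3 and 98.2 to 150 CPM in the other injury libraries.

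Injury 3 was within the gel range for all 3 genes and the other injury libraries were above it. The log2 differences without injury 3 were -1.42 ± 0.32 for FOXO4, -1.33 ± 0.31 for UBB and -0.94 ± 0.22 for FBXO31, and with injury 3 they were -1.13, -1.06 and -0.68. The muscle ubiquitin ligase FBXO32 (atrogin-1) had 128 to 683 CPM with the gel and 179 to 929 CPM with injury only, with wide overlap (edgeR adjusted p = 0.432, and 0.130 without injury 3). Under scaling by total counts without injury 3 the median of the atrophy list was -0.07, against 0.54 for all genes.

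Most clock genes were lower as well. Of 18, 16 were below 0 with a median log2 difference of -0.48, or -0.66 without injury 3, where 3 passed as lower (2.03% of all genes). The other 2 were above 0, up to a log2 difference of 2.49, the largest in the list. Both had an unadjusted p under 0.05 with 14 libraries (9.83% of all genes were higher), as did 7 of those below 0 (8.6%). Without injury 3, 0 were higher at that level in edgeR (14.5% of all genes) and 10 were lower (15.3%). In DESeq2 2 were then higher and 9 lower at that level. It called 0 higher (10.5% of all genes) and 6 lower (8.15%). ARNTL, the BMAL1 activator of the clock, had 8.99, 11.9, 6.86, 12.3 and 6.99 CPM with the gel and 28.5, 23.4, 19.8 and 13.3 CPM with injury only. The groups did not overlap for ARNTL, and injury 4 rather than injury 3 was closest to the gel libraries. NR1D1, the REV-ERB-alpha repressor, had 52.5 to 151 CPM with the gel, 112 CPM in injury 3 and 244 to 334 CPM in the other injury libraries. RORA, its opposing activator, had 4.95 to 7.91 CPM with the gel, 5.47 CPM in injury 3 and 10.2 to 16.3 CPM in the other injury libraries. The time of day at which each muscle was taken was not stated in those sources, and its part in the clock differences was not tested.

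Fast fibre and glycolysis genes were lower, again with injury 3 away from its group. For fast fibre genes the median log2 difference was -0.78, 14 of 16 being below 0, and -1.18 (16 of 16) without injury 3, where 0 passed in edgeR, 6 had an unadjusted p under 0.05 (15.3% of all genes) and DESeq2 called 2 (8.15% of all genes). MYH4, the heavy chain of the fastest myosin, had 1399, 931, 4259, 599 and 741 CPM with the gel and 20868, 74946, 1657 and 36879 CPM with injury only. Injury 3 was inside the gel range of MYH4 and the other injury libraries were above every gel library, with a log2 difference of -4.40 ± 1.54 with injury 3 and -4.88 ± 1.54 without it (edgeR adjusted p = 0.184 and 0.0722).

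Of 25 glycolysis genes, 19 were below 0 with a median of -0.78 (-1.10 without injury 3), and 1 passed. This was PFKFB3, the enzyme whose product activates phosphofructokinase, with a mean of 42.6 ± 15.5 CPM (SD, n = 5) and at most 57.6 CPM with the gel, and 213, 150, 71.8 and 229 CPM with injury only. Injury 3 was the lowest injury library but above every gel library, and the log2 difference was -1.96 ± 0.46 with it and -2.28 ± 0.45 without it. Against the list, ENO1, an enolase that dividing and immature cells use in place of the muscle form, had 313 to 543 CPM with the gel and 227 to 262 CPM with injury only. Slow fibre genes had a median of -0.20, or 0.26 without injury 3, and genes of oxidative phosphorylation 0.06, or -0.14 without it, so neither list had a stable direction.

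Injury 3 also departed from its group in genes with large falls, chosen among genes that passed without it, averaged 1 or more in log2 CPM and did not overlap in the other 8 libraries. MAPK6, the atypical kinase ERK3, had 136, 205, 84.4, 73.3 and 83.5 CPM with the gel and 1057, 805, 41.8 and 271 CPM with injury only. GPCPD1, a glycerophosphocholine phosphodiesterase, had 53.7, 56.3, 45.3, 55.8 and 68.7 CPM with the gel and 378, 370, 37.7 and 183 CPM with injury only. ANO2, a calcium-activated chloride channel, had 11 to 23.3 CPM with the gel, 5.24 CPM in injury 3 and 82.2 to 161 CPM in the other injury libraries. In these 3 genes injury 3 was lower than every gel library while the other injury libraries were higher than every gel library.

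HOXD8, a homeobox gene of limb patterning, had 2.00 to 21.0 CPM with the gel, 8.82 CPM in injury 3 and 41.0 to 90.2 CPM in the other injury libraries. SUSD4, an inhibitor of complement activation, had 1.58 to 5.22 CPM with the gel, 3.64 CPM in injury 3 and 17.5 to 31.5 CPM in the other injury libraries. PKDCC, a secreted tyrosine kinase, LRRC20 and CACHD1, a relative of calcium channel subunits, were of the same kind. The log2 differences without injury 3 were -2.68 for MAPK6, -2.55 for GPCPD1, -2.96 for ANO2, -3.09 for HOXD8, -2.75 for SUSD4, -2.28 for PKDCC, -2.29 for LRRC20 and -2.42 for CACHD1, and with injury 3 they were between -2.66 and -1.88.

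MSTN, myostatin, the inhibitor of muscle growth, had a like pattern. It had 9.41, 16.3, 6.09, 3.07 and 5.75 CPM with the gel and 55.0, 75.7, 2.16 and 18.9 CPM with injury only, and did not pass (edgeR adjusted p = 0.215, and 0.0583 without injury 3). ATF4, the transcription factor of the integrated stress response, passed narrowly (edgeR adjusted p = 0.0499), with 36.5 to 57.4 CPM with the gel, 53.9 CPM in injury 3 and 82.4 to 137 CPM in the other injury libraries.

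Matrix genes were higher in gel-treated muscle than in the 3 other injury muscles, and in the mean of the fibrosis list injury 3 was above every gel library. Relative to the mean of the 9 libraries, the mean log2 CPM was 1.24 in injury 3 and -0.07 to 1.03 in gel libraries. It was -1.30 to -0.77 in the other injury libraries. Over 56 genes of fibrillar collagen and fibrosis the median log2 difference was 0.50 with 45 above 0, and 1.43 with 54 above 0 without injury 3. With 14 libraries 2 were higher at an unadjusted p under 0.05 (9.83% of all genes) and DESeq2 called 1 higher (3.65%). Without injury 3, 0 passed in edgeR, 19 had an unadjusted p under 0.05 (14.5% of all genes) and DESeq2 called 16 (10.5% of all genes). COL1A1, the main collagen of scar and tendon, had 2652, 1568, 2752, 672 and 783 CPM with the gel and 144, 178, 1473 and 200 CPM with injury only. BGN, the small proteoglycan biglycan, had 482, 330, 803, 171 and 125 CPM with the gel and 21.0, 28.8, 398 and 33.7 CPM with injury only. Injury 3 lay inside the gel range for both and the other injury libraries lay under every gel library. The edgeR adjusted p-values without injury 3 were 0.122 for COL1A1 and 0.0757 for BGN. With 14 libraries they were 0.442 and 0.464.

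One matrix gene in which injury 3 kept to its group was CYR61, a matricellular protein and target of YAP, with 89.0, 119, 248, 45.3 and 102 CPM with the gel and 28.1, 33.8, 33.7 and 34.6 CPM with injury only. The log2 difference of CYR61 was 1.89 ± 0.49 with injury 3 and 1.84 ± 0.56 without it, and it did not pass (edgeR adjusted p = 0.145 and 0.0678). TGFB1, the ligand that drives fibrosis, had 15.8, 10.6, 35.5, 8.02 and 7.15 CPM with the gel and 2.97, 3.07, 11.2 and 4.29 CPM with injury only, while the 25 TGF-beta signalling genes had a median of -0.24, or 0.03 without injury 3.

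Tenocyte markers changed sign with injury 3, with a median log2 difference of -0.57 over 11 genes with it and 0.58 without it. Their sum was 472 to 569 CPM in gel libraries, 1620 CPM in injury 3 and 243 to 465 CPM in the other injury libraries. THBS4, a thrombospondin of tendon and muscle junctions, had 121 to 293 CPM with the gel, 840 CPM in injury 3 and 53.7 to 90.3 CPM in the other injury libraries. Fibro-adipogenic progenitor markers summed to 479 to 781 CPM in gel libraries, 1340 CPM in injury 3 and 275 to 524 CPM in the other injury libraries. Cartilage and bone genes summed to 23.2 to 144 CPM in gel libraries and 8.94 to 68.4 CPM in injury libraries, with COL9A1 and BGLAP at 0 in all 9. The part of tendon and connective tissue in the matrix differences was not tested.

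Fat genes were lower in gel-treated muscle, with injury 3 at the far end of its own group. Of 19 adipocyte genes, 18 had a log2 difference below 0, with a median of -1.20, or -0.95 with 17 below 0 without injury 3. With 14 libraries 9 of the 19 were lower at an unadjusted p under 0.05 (8.6% of all genes). Without injury 3 only 1 was lower at that level (15.3% of all genes), and 0 passed in edgeR or DESeq2. Their sum over 20 genes did not overlap, at 1140 to 2550 CPM in gel libraries and 3080 to 5140 CPM in injury libraries, with injury 3 the highest. A sum follows its most abundant genes, and the mean log2 CPM of the list did overlap. Relative to the mean of the 9 libraries, gel 4 (0.30) and gel 5 (0.29) lay above injury 1 (0.14) and injury 2 (0.05). Of the 19 genes, 0 were lower without overlap (2.92% of all genes). PPARG, the master regulator of fat cells, had 11.5, 2.87, 5.07, 11.5 and 10.3 CPM with the gel and 8.19, 11.1, 62.8 and 28.0 CPM with injury only. CIDEC, a lipid droplet protein, had 14.5, 1.11, 2.53, 27.8 and 31.1 CPM with the gel and 29.3, 22.0, 162 and 94.1 CPM with injury only.

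Gel 2 and gel 3 were the lowest libraries for PPARG and CIDEC, and injury 1 and injury 2 overlapped the gel range. The log2 difference was -1.74 ± 0.65 for PPARG and -2.32 ± 0.98 for CIDEC, and -0.99 ± 0.61 and -1.71 ± 1.00 without injury 3, none of them past the test. DGAT2, which makes triglyceride, had 14.1 to 159 CPM with the gel and 119 to 465 CPM with injury only, and LIPE, hormone-sensitive lipase, had 6.90 to 37.0 CPM with the gel and 24.5 to 126 CPM with injury only. The exception in the list was PLIN2, a lipid droplet coat protein found in many cell types, with 27.6 to 65.8 CPM with the gel and 17.9 to 34.2 CPM with injury only.

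Schwann cell genes as a list were near the background, with a median log2 difference of -0.10, or 0.02 without injury 3, and 4 of 19 were lower without overlap in 9 libraries, among them S100B and NCMAP, and 1, EGR2, was higher, against 2.92% and 4.35% of all genes. S100B, a calcium-binding protein of glia, had 4.96, 3.77, 6.43, 4.99 and 6.75 CPM with the gel and 8.74, 6.82, 27.2 and 14.7 CPM with injury only. Injury 3 was the highest library, S100B is also made by fat cells, and it did not pass (edgeR adjusted p = 0.156, and 0.0858 without injury 3).

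Of 28 endothelial and mural genes, 14 were above 0 and 14 below, and 20 were above 0 without injury 3, with a median log2 difference of 0.28. Their sum was 9630 to 14100 CPM in gel libraries and 6160 to 9710 CPM in injury libraries, with injury 3 the lowest. A sum follows its most abundant genes, and the mean log2 CPM, which weighs each gene alike, gave another order. Relative to the mean of the 9 libraries, injury 3 was then the highest at 0.57. Gel libraries were at -0.32 to 0.31 and the other injury libraries at -0.26 to -0.16. CDH5, the VE-cadherin of endothelial junctions, had 62.7 to 88.4 CPM with the gel, 98.2 CPM in injury 3 and 46.0 to 55.6 CPM in the other injury libraries. FLT1, the VEGF receptor 1, had 9.30 to 24.8 CPM with the gel and 26.6 to 43.1 CPM with injury only, without overlap. TEK, the angiopoietin receptor, had 11.6 to 27.3 CPM with the gel and 24.4 to 49.9 CPM with injury only. None of these genes passed, with edgeR adjusted p-values without injury 3 of 0.0855 for CDH5, 0.147 for FLT1 and 0.219 for TEK. With 14 libraries they were 0.562, 0.189 and 0.212.

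**Figure D5:**
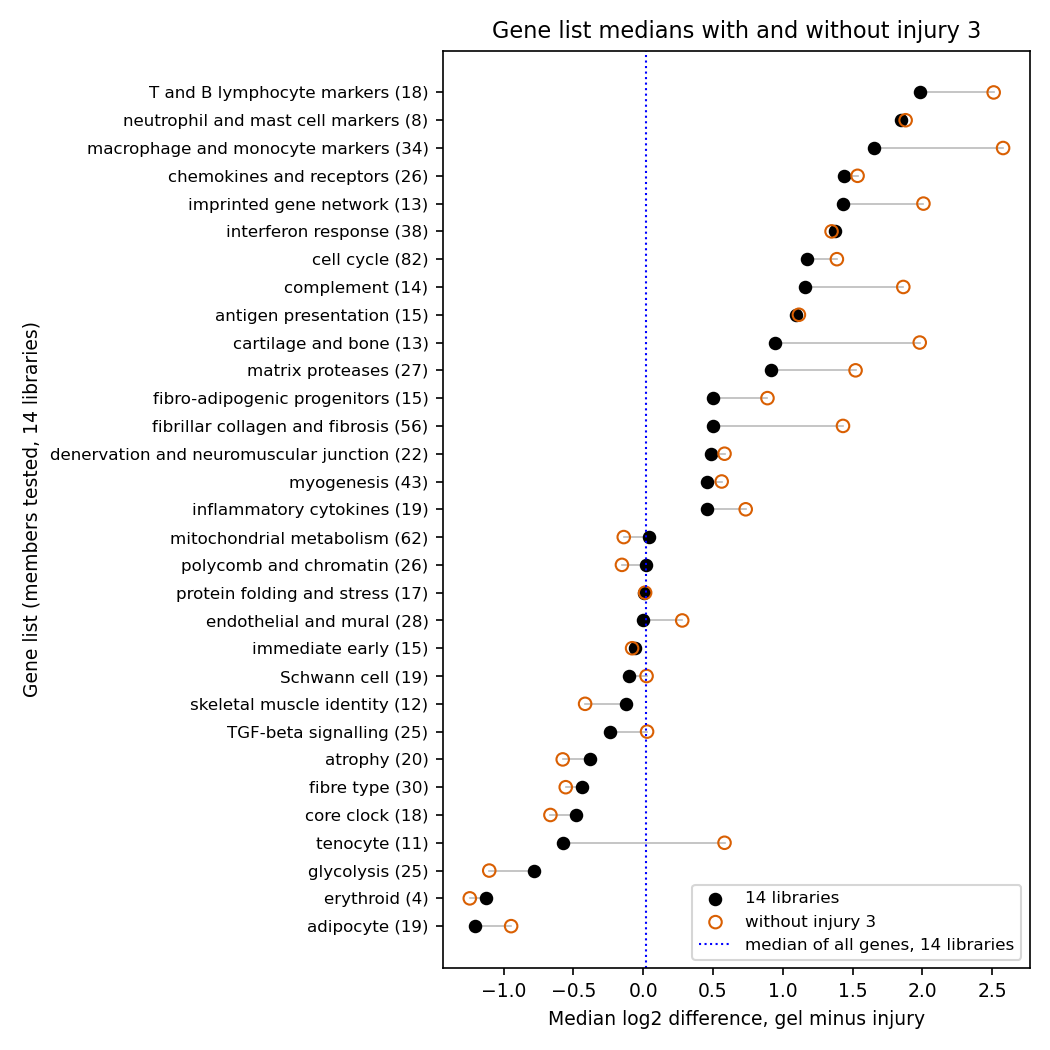
Median log2 difference, gel minus injury, of 31 gene lists with all 14 libraries (filled) and without injury 3 (open), with the number of members tested in the 14-library fit and the median of all genes as a dotted line. Interferon and antigen presentation lists stay in place without injury 3, collagen, macrophage and cartilage lists move up, and the tenocyte list is at -0.57 with injury 3 and at 0.58 without it.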

How the data were processed

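Each library came as 1 file of raw, unnormalized read counts that the authors deposited, with 18210 entries. The submitters' processing notes list STAR, edgeR and the build OryCun2.0. How reads were counted, and whether by strand, was not stated there, so overlapping or near-identical genes cannot be told apart. Left out were 26 entries with names turned into dates (at most 0.163% of a library). Summing 15 entries that shared 7 symbols gave 18176 genes. Gene numbers of 2379 of the 3500 LOC identifiers were found in RefSeq's table for a different rabbit assembly, which gave 578 of them a symbol, among them S100A13. No 2 libraries of a group held identical counts.

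The 14 short-term libraries were fitted with edgeR 4.0.16 (R 4.3.3), contrasting gel minus injury in a robust quasi-likelihood test after TMM scaling and a filter on expression (minimum count 10). Adjusted p-values are 2-sided Benjamini-Hochberg values with a threshold of 0.05. CPM values are TMM-scaled. Alternatives used DESeq2 1.42.0 and limma 3.58.1. The fits were tested on simulated data.

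The members, 31 gene lists and a panel of 30 genes were chosen with earlier results of these data known. Genes were named from the panel, from the 8 genes per direction with the smallest p (mean log2 CPM of at least 1, no overlap in 9 libraries), from the 8 per direction with the largest difference among those passing without injury 3 (the same minimum, no overlap in the other 8), and from up to 3 members per list role and direction with the smallest p without injury 3. Which of these are given singly was decided after their values were seen. Of the 264 genes named in this way, 88 are given with values, and some are not reported here.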

Additional observations from a re-analysis of the deposited data

Results flagged for a closer look

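For each gene given singly, a library was sought whose gap to its nearest neighbour was a large share of its group's range (Dixon's criterion at 95%). The criterion was met in 19 of 180 groups. Chance alone meets it in about 1 in 20 unselected groups. These genes were chosen after their values were seen and share the same libraries, so the 19 cannot be set against that rate. Injury 3 stood apart in 9 of these. It was highest among the injury libraries in BGN (398 CPM), CFP (2.80 CPM), COL1A1 (1473 CPM), ITGAX (1.83 CPM), PEG3 (27.2 CPM), PSMB10 (8.60 CPM), RRM2 (0.888 CPM) and TEK (49.9 CPM) and lowest in FOXO4 (66.7 CPM). Gel 3 stood apart in 6. It was highest among the gel libraries in CD27 (2.04 CPM), MYOD1 (103 CPM) and TNFRSF1B (58.3 CPM) and lowest in LRRC20 (25.1 CPM), NR1D1 (52.5 CPM) and PKDCC (21.9 CPM). The other libraries were gel 2 for ATF4 (36.5 CPM, lowest), gel 4 for TK1 (36.6 CPM, highest), gel 5 for RRM2 (1.20 CPM, lowest) and injury 1 for CYR61 (28.1 CPM, lowest).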

How the results depend on the processing

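Counts of genes passing depended on the fit. With 14 libraries DESeq2 called 492 higher and 296 lower, limma voom with sample quality weights 1869 and 1798, and edgeR on the 9 libraries alone 6 and 1, while edgeR with DESeq2's size factors, with total counts or with no filter called 0. Leaving out single libraries gave 0 to 105 higher and 0 to 277 lower. Without injury 3 and repair 4, 1150 were higher and 1427 lower, and in the 8 libraries without injury 3, 1510 and 1430. Of the 382 genes called without injury 3 by edgeR, the 8-library fit shared 381, which is 99.7% of the 382 and 13% of its 2940. Without injury 3, DESeq2 called 1425 higher and 1110 lower, edgeR with DESeq2's size factors 74 and 147, and edgeR with total counts 0; leaving out a further gel or injury library gave 0 to 120 higher and 0 to 423 lower.

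Whether same-numbered gel and injury libraries were paired in any way was not stated. Their deviations correlated at -0.0585, 0.275, 0.388 and 0.00712. Libraries of different numbers were not compared, so these values cannot decide it. With the replicate number as a block 0 genes passed, with or without injury 3. Of 90 genes given singly, 1 changed sign under any alternative. The log2 difference of THBS4, -0.36 with 14 libraries, was 1.46 with quality weights, 0.23 with the replicate block, 1.54 without injury 3 and repair 4, and 1.56 in the 8 libraries without injury 3. Over single libraries left out it was -0.70 to 1.54, the highest without injury 3. The cause of these shifts was not tested. The 176 named genes not given singly had log2 differences of -2.25 to 5.35. Genes at low CPM rest on few counts, so their differences have wide errors.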

Other observations

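DLK1 belongs to a network of imprinted genes that is active in fetal growth. Of 13 of these genes tested, 10 had a log2 difference above 0 between gel-treated and injury-only muscle, with a median of 1.43, and 2.01 without injury 3. In the latter fit DLK1 alone passed in edgeR, and DESeq2 called 6 as higher (10.5% of all genes). PEG3, a zinc finger protein of stem and progenitor cells, had 21.4, 37.9, 148, 15.0 and 11.7 CPM with the gel and 4.67, 6.05, 27.2 and 4.52 CPM with injury only. PEG10, derived from a retrotransposon, had 26.4, 40.9, 108, 15.7 and 10.8 CPM with the gel and 2.93, 4.61, 22.4 and 3.09 CPM with injury only. Gel 3 was the highest library of both, and injury 3 lay inside the gel range while the other injury libraries lay under it. Their log2 differences were 2.14 ± 0.79 for PEG3 and 2.28 ± 0.87 for PEG10, and 3.13 ± 0.80 and 3.44 ± 0.89 without injury 3 (edgeR adjusted p = 0.0527 and 0.0528). With gel 3 left out and injury 3 kept they were 0.99 for PEG3 and 1.48 for PEG10. In DLK1, by contrast, injury 3 was at 0.111 CPM, within the other injury libraries.

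Among complement genes the median log2 difference was 1.16, 12 of 14 being above 0, and 1.86 with 15 of 15 above 0 without injury 3. CFP, properdin, which stabilises the alternative pathway, had 6.26, 4.17, 7.33, 4.14 and 4.32 CPM with the gel and 0.869, 1.04, 2.80 and 0.904 CPM with injury only, without overlap (edgeR adjusted p = 0.168, and 0.0511 without injury 3). Matrix protease and inhibitor genes had a median of 0.91, or 1.52 without injury 3. Among them TIMP1, an inhibitor of matrix metalloproteinases, had 9.51 to 54.4 CPM with the gel and 2.85 to 15.2 CPM with injury only, while its relative TIMP4 had 1.70 to 4.06 CPM with the gel and 2.66 to 25.3 CPM with injury only, where injury 3 was the highest. Protein folding genes and immediate early genes were near the median of all genes, at 0.0071 and -0.06, or 0.014 and -0.08 without injury 3. Inflammatory cytokine genes had a median of 0.46 (0.73 without injury 3), fibro-adipogenic progenitor markers 0.50 (0.89), cartilage and bone genes 0.95 (1.98), neutrophil and mast cell genes 1.85 (1.88) and erythroid genes -1.13 (-1.24). Skeletal muscle identity genes were at -0.12, or -0.42 without injury 3, and at 0.15 and 0.07 when libraries were scaled by total counts.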
